A study of Mus musculus with 36 samples.

Results

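The collagen chain genes are the genes whose symbol is Col, a type number, the letter a and a chain number. By that rule 33 of the 16060 genes in the 6 gene tables of the series are collagen chain genes, and all 33 were measured in iWAT (inguinal white adipose tissue, fat from under the skin of the groin) and 22 in liver. They were grouped by type number into 8 fibrillar chains (types I, III, V and XI), 5 basement membrane chains (type IV), 6 beaded-filament chains (type VI), 2 endostatin-type chains (types XV and XVIII) and 12 others. The others include Col27a1, which is also fibril-forming. GENCODE M21 names 44 such genes, and the 11 outside the tables were not analysed here (Col2a1, Col4a6, Col8a2, Col9a1, Col9a2, Col9a3, Col10a1, Col19a1, Col22a1, Col25a1 and Col26a1).

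Bulk RNA sequencing compared C57BL/6J mice kept for 16 weeks on calorie restriction (CR), on time-restricted feeding without calorie restriction (TR, labelled TR.al) or on food ad libitum (AL, labelled as the control). The design asked whether fasting by itself gives the transcriptional response to a calorie-restricted diet. The 36 libraries, 6 for every diet in every tissue, come from 20 mice, of which 16 gave iWAT and liver, and neither age nor any genetic change is named in the labels. The authors deposited 1 edgeR comparison per pair of diets and tissue, with no values per library, so depth and the spread between the mice of a group are unknown, and which libraries were high or low and whether groups overlapped cannot be told. Group levels in CPM (read counts scaled to library size) were back-calculated from each comparison's log2 fold change and log2 mean CPM, and an approximate standard error (SE) was taken from the likelihood-ratio statistic. A gene was called changed at an adjusted p (the authors' FDR) under 0.05. The adipocyte gene Adipoq stood at 2602 CPM in CR, 3042 CPM in TR and 2894 CPM in AL iWAT and was in no liver table, and the hepatocyte gene Alb stood at 107412 CPM in CR, 115974 CPM in TR and 74595 CPM in AL liver. Alb was also found in iWAT, at 175 CPM in CR, 5113 CPM in TR and 680 CPM in AL.

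Collagens are secreted or membrane-anchored proteins in which chains wind into helical trimers, and they form much of the extracellular matrix. Fibrillar types I, III and V build the tensile fibrils of connective tissue. Type IV networks form the sheet that underlies endothelium and epithelium and surrounds each adipocyte. Type VI filaments link that sheet to the fibrils and are abundant in fat. In liver, type I and III collagens are known mainly as products of hepatic stellate cells and portal fibroblasts, and they accumulate in fibrosis.

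The stretches upstream of 3 sets of genes that the results turn on are shown first. They are Col3a1 and Col27a1, higher in liver on both diets, and the pair Col4a4 and Col4a3, lower in iWAT on both diets, whose transcripts start back to back. All are from RefSeq (GRCm38.p6), printed 5′ to 3′. Col3a1 is given by the 250 bases before its start, chr1:45311288-45311537 on the + strand. Col27a1 is given by the 250 bases before its RefSeq start, chr4:63215162-63215411 on the + strand, which lies inside the gene's longer GENCODE span. Col4a4 and Col4a3 are given by the 126 bases between the starts of Col4a4-201 and Col4a3-201, chr1:82586850-82586975, read on the - strand, the sense of Col4a4. Capitals mark matches to CCAAT (the CCAAT box), TATAAA (the TATA box) or GGGCGG (the GC box), searched on both strands, none of which overlap here.
Col3a1: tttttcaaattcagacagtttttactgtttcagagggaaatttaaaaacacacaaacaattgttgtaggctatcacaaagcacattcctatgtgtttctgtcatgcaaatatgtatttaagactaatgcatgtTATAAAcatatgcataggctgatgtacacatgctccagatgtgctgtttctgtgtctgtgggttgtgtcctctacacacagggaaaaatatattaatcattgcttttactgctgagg
Col27a1: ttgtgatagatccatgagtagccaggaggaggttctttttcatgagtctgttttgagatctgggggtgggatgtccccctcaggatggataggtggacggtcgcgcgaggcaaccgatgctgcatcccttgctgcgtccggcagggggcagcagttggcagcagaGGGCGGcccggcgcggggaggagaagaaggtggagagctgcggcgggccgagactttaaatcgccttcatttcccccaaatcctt
Col4a4 and Col4a3: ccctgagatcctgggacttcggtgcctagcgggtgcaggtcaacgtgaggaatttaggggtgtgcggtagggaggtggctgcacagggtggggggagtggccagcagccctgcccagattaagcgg
The Col3a1 stretch held TATAAA, beginning 117 bases before the start (position -117), a motif in 12.4% of the 32851 RefSeq mouse promoter stretches of 250 bases. The Col27a1 stretch held GGGCGG at position -85, a motif in 32.7% of them, and CCAAT was in 33.8%. The Col4a4 and Col4a3 stretch held none of the 3 motifs, and over 126 bases the CCAAT box was in 22.0% of promoters, the TATA box in 6.62% and the GC box in 27.0%. Its G and C share was 64.3%, beside 59.6% for Col27a1 and 35.2% for Col3a1. A match describes the letters and says nothing of a factor, and of the 33 genes 28 had a RefSeq promoter entry.

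The chains differed widely in level per kilobase of transcript (CPM per kb). In iWAT the highest was Col3a1 at 288 CPM per kb in CR, 261 in TR and 310 in AL. Col4a1 followed at 139 in CR, 117 in TR and 200 in AL, and Col1a2 at 89.8 in CR, 80.0 in TR and 120 in AL. In AL iWAT Col4a2 stood at 108 CPM per kb, Col6a1 at 90.2, Col6a2 at 64.6, Col15a1 at 59.7, Col6a3 at 59.1 and Col1a1 at 42.6. The chains Col4a3, Col4a4 and Col4a5 were far lower, at 0.617, 1.10 and 1.41 CPM per kb in AL iWAT. In liver the order was different, and Col18a1 was the highest at 84.5 CPM per kb in CR, 107 in TR and 80.4 in AL. Col27a1 came next at 31.0 in CR, 44.0 in TR and 11.9 in AL, ahead of Col14a1 at 8.72 in CR, 9.25 in TR and 6.26 in AL. Levels of the tissues were normalized separately, and without values per library the differences between neighbours in these orders were not tested.

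**Figure D1:**
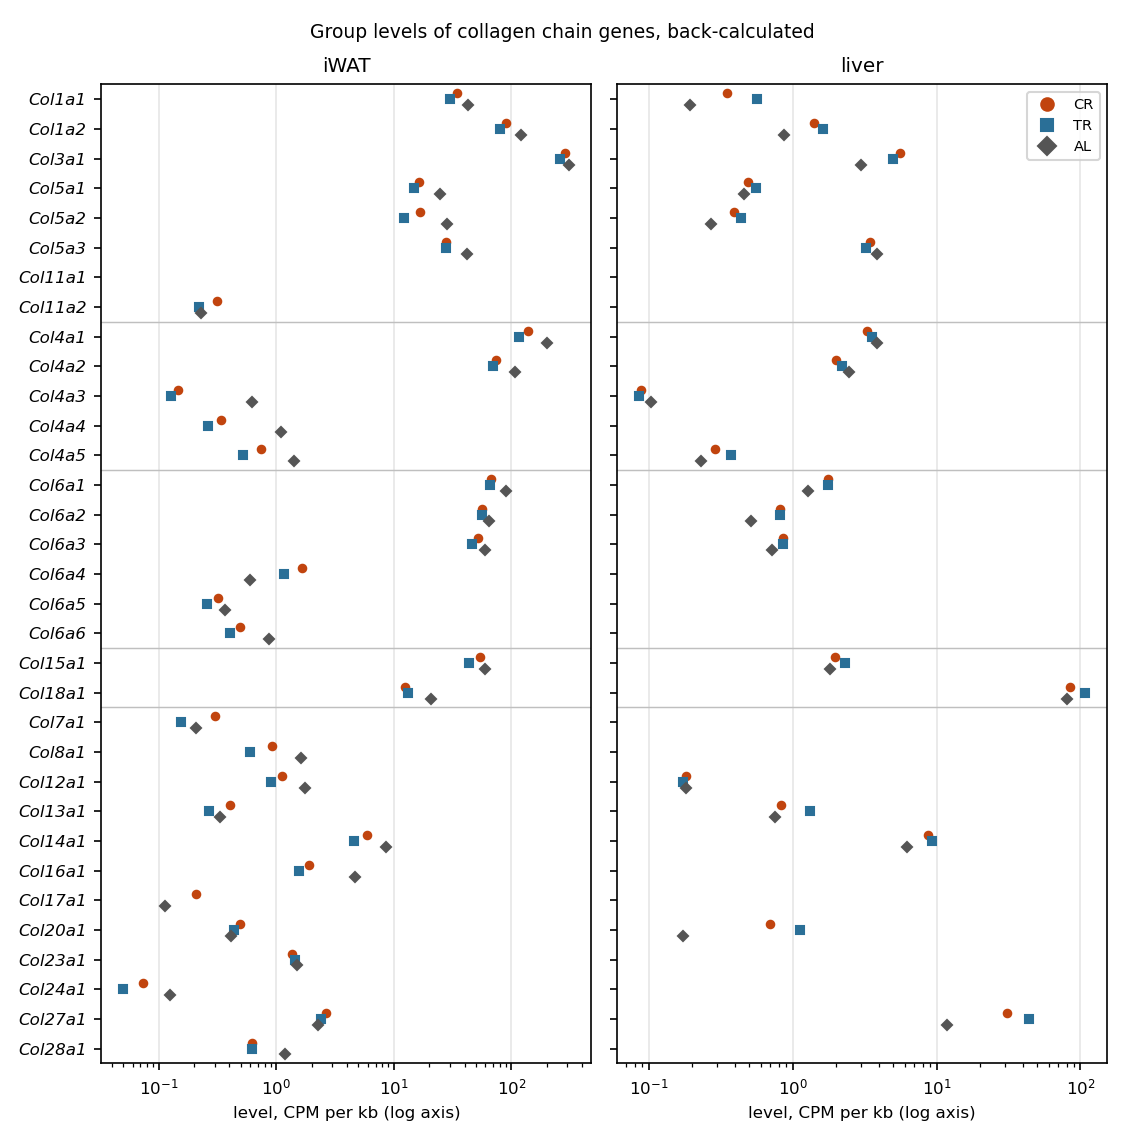
Back-calculated group level of each collagen chain gene in CPM per kb of transcript (log axis), for CR (circles), TR (squares) and AL (diamonds), in iWAT at the left and liver at the right; grey lines part fibrillar, basement membrane, beaded, endostatin-type and other chains. Col3a1 is highest in iWAT (288 in CR, 261 in TR, 310 in AL) and Col18a1 in liver, and Col11a1 in iWAT and Col11a2 and Col16a1 in liver have no plotted level because no transcript of them was listed there.

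In iWAT of CR mice 3 of 33 collagen genes fell relative to AL, and none rose. They were Col4a3 and Col4a4, basement membrane chains, and Col11a1, a minor fibrillar chain known from cartilage. Col11a1 was measured only in the iWAT tables that include AL, its higher group, and without it the count is 2. The 3 are 9.09% of the collagen genes, beside 3.78% of all genes that fell in the same comparison (0 collagen genes rose, beside 3.52% of all genes). Collagen genes had a median log2 fold change of -0.52 in the authors' deposited table of CR against AL, beside 0.02 over all genes, and 26 of 33 lay below 0, beside 48.1% of all genes. Col24a1, also below 0, was likewise measured in iWAT only where AL, its higher group, was present, and Col17a1, above 0, only where CR was. At an unadjusted p under 0.05 by the authors' edgeR test, 10 collagen genes were lower, beside 11.0% of all genes, and 0 were higher, beside 8.67%. Because tissue was sequenced in bulk, fewer collagen-making cells and less collagen RNA per cell cannot be told apart.

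In iWAT of TR mice 6 of 32 collagen genes fell relative to AL, and none rose. They were the basement membrane chains Col4a3, Col4a4 and Col4a5, the fibrillar chain Col5a2, the short-chain network collagen Col8a1 and the fibril-associated Col16a1. The 6 are 18.8% of those measured, beside 5.24% of all genes that fell (0 rose, beside 4.76% of all genes). The median log2 fold change was -0.59 in the authors' deposited table of TR against AL, beside -0.04 over all genes, with 29 of 32 below 0 beside 52.5% of all genes. Col11a1 and Col24a1, both below 0, were measured in iWAT only where AL, their higher group, was present. By the unadjusted edgeR p, 10 were under 0.05 and lower, beside 13.3% of all genes, and 0 were higher, beside 9.70%. The CR and TR comparisons use the same 6 AL libraries, so their values stand side by side below and are not independent of each other.

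Among the basement membrane chains of iWAT, the pair Col4a3 and Col4a4 fell on both diets. Their proteins form a trimer with the Col4a5 chain, known from the kidney glomerulus and altered in human Alport syndrome. Col4a3 stood at 1.24 CPM in CR and 1.09 CPM in TR, against 5.28 CPM in AL. Its log2 fold change in the authors' deposited table was -2.09 on CR (approximate SE 0.535, edgeR adjusted p = 0.0035) and -2.27 on TR (SE 0.517, adjusted p = 4.9e-04). Col4a4 stood at 3.40 CPM in CR and 2.66 CPM in TR, against 11.1 CPM in AL, and so was also low on either diet. For it the authors' deposited table gave -1.71 on CR (SE 0.453, edgeR adjusted p = 0.0052) and -2.06 on TR (SE 0.526, adjusted p = 0.0026). The genes lie head to head on chromosome 1 with 71 bases between them in GENCODE M21. Col4a3 shares 563 of its 9967 exon bases with C430014B12Rik on the opposite strand, and the sources used here do not give the strand setting of the counting.

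Col4a5 had 3.96 CPM in CR and 2.76 CPM in TR, against 7.52 CPM in AL. In the authors' deposited table its log2 fold change was -1.44 on TR (SE 0.494, edgeR adjusted p = 0.041), past the threshold, and -0.92 on CR (SE 0.428, adjusted p = 0.19), not past it. The abundant chains Col4a1 and Col4a2, which form the trimer found in nearly all basement membranes, did not pass on either diet. Col4a1 had 786 CPM in CR and 678 CPM in TR, against 1128 CPM in AL, with log2 fold changes -0.52 and -0.72 in the authors' deposited table (edgeR adjusted p = 0.48 on CR and 0.19 on TR). Col4a2 had 464 CPM in CR and 442 CPM in TR, against 682 CPM in AL, with -0.56 and -0.61 in the authors' deposited table (edgeR adjusted p = 0.39 on CR and 0.34 on TR). Whether Col4a3 and Col4a4 changed more than Col4a1 and Col4a2 was not tested, and the approximate 95% intervals on CR ran from -3.14 to -1.04 for Col4a3 and from -1.28 to 0.23 for Col4a1.

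**Figure D2:**
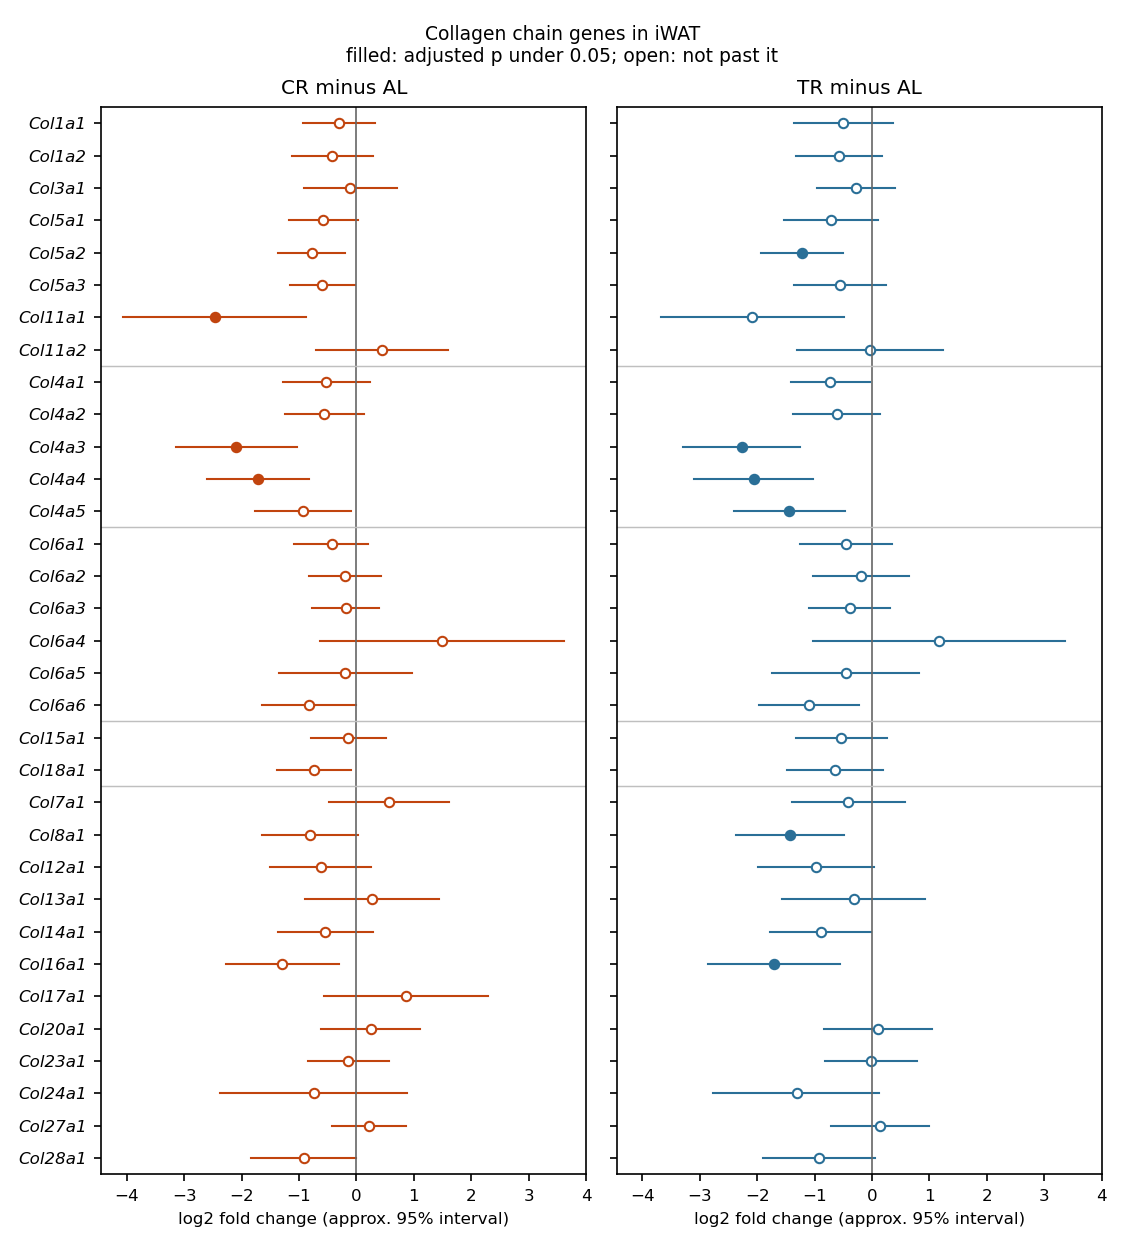
Log2 fold change of each collagen chain gene in iWAT for CR minus AL (left) and TR minus AL (right), with approximate 95% intervals; filled circles have an adjusted p under 0.05 and grey lines part the classes as in the plot of levels. Most points lie left of 0 (26 of 33 on CR, 29 of 32 on TR), and Col4a3 and Col4a4 are filled in both panels. Col11a1 and Col24a1 were measured only where AL, their higher group, was present.

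The main fibril chains of iWAT did not pass the test. Col1a1, a chain of type I collagen, had 204 CPM in CR and 178 CPM in TR, against 253 CPM in AL (log2 fold changes -0.31 and -0.50 in the authors' deposited table, edgeR adjusted p = 0.63 and 0.52). Col1a2, its partner chain, had 473 CPM in CR and 422 CPM in TR, against 632 CPM in AL (-0.42 and -0.57 in the authors' deposited table, edgeR adjusted p = 0.55 and 0.38). Col3a1, which alone forms type III collagen, had 1135 CPM in CR and 1003 CPM in TR, against 1222 CPM in AL (-0.11 and -0.27 in the authors' deposited table, edgeR adjusted p = 0.91 and 0.68). Their approximate 95% intervals reach -1.12 for Col1a2 on CR and -1.35 for Col1a1 on TR, so a fall of that size is not excluded.

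Type V chains help start fibrils and set their width, and 1 of the 3 passed in iWAT. Col5a2 fell on TR, to 80.3 CPM against 186 CPM in AL (log2 fold change -1.21, SE 0.365, edgeR adjusted p = 0.015 in the authors' deposited table). On CR it had 110 CPM, against 187 CPM in AL, and did not pass (-0.77, edgeR adjusted p = 0.096 in the authors' deposited table). Col5a1 did not pass on either diet, with 16.5 CPM per kb in CR and 14.8 in TR, against 24.6 in AL (-0.58 and -0.72 in the authors' deposited table, edgeR adjusted p = 0.28 and 0.30). Col5a3 had 167 CPM in CR and 170 CPM in TR, against 253 CPM in AL, also without passing (edgeR adjusted p = 0.22 and 0.42 by the authors' deposited table). The type XI chain Col11a1 fell on CR, with 0.246 CPM against 1.36 CPM in AL (-2.47, SE 0.809, edgeR adjusted p = 0.036 in the authors' deposited table). On TR it had 0.321 CPM and -2.08, short of the threshold (edgeR adjusted p = 0.083 in the authors' deposited table), and its level is among the lowest of the collagen genes. It is in the iWAT tables that include AL, its higher group, and not in that of CR against TR, so it was measured only where AL was present. Col11a2, the other type XI chain, had 1.89 CPM in CR and 1.34 CPM in TR, against 1.40 CPM in AL (adjusted p = 0.72 and 0.99, edgeR, the authors' deposited table).

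None of the 6 beaded-filament chains passed in iWAT on either diet. Col6a1 had 274 CPM in CR and 268 CPM in TR, against 370 CPM in AL (log2 fold changes -0.43 and -0.45 in the authors' deposited table, edgeR adjusted p = 0.49 and 0.54). For Col6a2 the levels were 229 CPM in CR and 230 CPM in TR, against 264 CPM in AL (-0.21 and -0.19 in the authors' deposited table, edgeR adjusted p = 0.76 and 0.83). Col6a3, whose protein end is released as endotrophin, had 261 CPM in CR and 227 CPM in TR, against 298 CPM in AL (-0.19 and -0.38 in the authors' deposited table, edgeR adjusted p = 0.77 and 0.56). Over both diets the lower ends of the approximate 95% intervals of these 3 partner chains lay between -1.26 and -0.78. Of the alternative chains Col6a4, Col6a5 and Col6a6, only Col6a4 had a fold change above 0 on CR (1.49, approximate SE 1.09, the authors' deposited table), and Col6a6 came nearest to passing on TR (-1.10, edgeR adjusted p = 0.097).

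The endostatin-type chains, basement membrane proteoglycans whose ends are cut to anti-angiogenic fragments, did not pass in iWAT. Col15a1 had 192 CPM in CR and 145 CPM in TR, against 211 CPM in AL (-0.14 and -0.53 in the authors' deposited table, edgeR adjusted p = 0.85 and 0.45). Col18a1 had 65.0 CPM in CR and 68.9 CPM in TR, against 109 CPM in AL (-0.74 and -0.64 in the authors' deposited table, edgeR adjusted p = 0.16 and 0.37). Among the other chains Col8a1, a component of subendothelial and corneal networks, fell on TR to 3.06 CPM against 8.21 CPM in AL (-1.43, SE 0.480, edgeR adjusted p = 0.035 in the authors' deposited table). On CR Col8a1 had 4.72 CPM and did not pass (-0.81, edgeR adjusted p = 0.27 in the authors' deposited table). Col16a1, a fibril-associated collagen, fell on TR to 4.16 CPM against 13.5 CPM in AL (-1.70, SE 0.585, edgeR adjusted p = 0.041 in the authors' deposited table). On CR Col16a1 had 5.58 CPM and did not pass (-1.29 in the authors' deposited table, edgeR adjusted p = 0.097). No other chain of this class passed, and in the authors' deposited table they ranged on CR from -0.92 (Col28a1) to 0.86 (Col17a1, measured in the CR comparisons only) and on TR from -1.31 (Col24a1) to 0.14 (Col27a1). Col24a1 was measured in iWAT only where AL, its higher group, was present, and Col17a1 only where CR, its higher group, was.

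Genes that make, cut or bind collagen were read from lists chosen with earlier results of these data known. Counts in iWAT, for these lists and the markers below, stand beside 3.78% of all genes that fell on CR and 3.52% that rose. On TR the shares of all genes were 5.24% and 4.76%. None of 21 genes of collagen modification and folding passed in iWAT on either diet, with median log2 fold changes -0.17 on CR and 0.05 on TR. The collagen chaperone Serpinh1, picked with its liver values in view, had 636 CPM in CR and 770 CPM in TR, against 504 CPM in AL (edgeR adjusted p = 0.63 and 0.28 by the authors' deposited table). Of 6 procollagen processing genes 2 fell on CR and 0 on TR. They were Adamts2, the procollagen N-proteinase, with -0.87 on CR and -1.04 on TR in the authors' deposited table (edgeR adjusted p = 0.042 and 0.068), and Pcolce2, an enhancer of C-terminal cleavage, with -1.18 and -1.25 (adjusted p = 0.044 and 0.075). Of 18 enzymes of collagen breakdown and their inhibitors 6 fell on CR and 4 on TR, with none higher. Mmp14, the membrane collagenase, had 47.3 CPM in CR and 33.7 CPM in TR, against 112 CPM in AL (-1.25 and -1.73 in the authors' deposited table, edgeR adjusted p = 3.2e-05 and 1.1e-06). The inhibitor Timp4 had 78.5 CPM in CR and 101 CPM in TR, against 336 CPM in AL (-2.10 and -1.72 in the authors' deposited table, edgeR adjusted p = 1.4e-12 and 4.0e-04). Mmp12, the macrophage elastase, fell by 2.11 on CR and by 3.24 on TR on the log2 scale of the authors' deposited table (edgeR adjusted p = 0.0071 and 2.4e-04).

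On CR all 15 basement membrane partners lay below 0 (median log2 fold change -0.52), and on TR 14 of 15 (median -0.78). Of the 15, 0 passed on CR and 2 fell on TR. These were Nid1, the nidogen that bridges laminin and type IV networks, with -1.39 in the authors' deposited table (edgeR adjusted p = 0.0012), and the laminin chain Lama5 with -0.92 (adjusted p = 0.032). Among collagen receptors 2 of 10 fell and 1 rose on CR, and 4 of 11 fell on TR. The receptor kinase Ddr2, activated by fibrillar collagen, fell by 1.14 on CR and 1.45 on TR on the log2 scale of the authors' deposited table (edgeR adjusted p = 0.011 and 7.8e-04). The proteoglycan Cspg4, which binds type VI collagen, was the 1 that rose, with 1.08 on CR in the authors' deposited table (edgeR adjusted p = 0.0025), and had 1.01 on TR (adjusted p = 0.063). Fibril-associated proteoglycans and glycoproteins fell in 5 of 16 cases on CR and 6 of 16 on TR. Dcn, decorin, a fibril-coating proteoglycan, had 604 CPM in CR and 502 CPM in TR, against 1469 CPM in AL (-1.28 and -1.54 in the authors' deposited table, edgeR adjusted p = 0.043 and 3.9e-04). Thbs2, a matricellular protein, had 31.9 CPM in CR and 27.1 CPM in TR, against 130 CPM in AL (-2.03 and -2.25 in the authors' deposited table, edgeR adjusted p = 3.7e-08 and 7.0e-07). Of 17 genes of the TGF-beta pathway, a main inducer of collagen genes, 3 fell on CR and 6 on TR, among them the ligand Tgfb3 (-1.02 and -1.34 in the authors' deposited table, edgeR adjusted p = 0.017 and 0.0057).

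Markers of the cell types in iWAT moved beside these genes, and their part in the collagen values was not tested. Of 12 fibroblast and progenitor markers, 1 fell on CR (Fbn1) and 2 on TR (Pdgfra and Fbn1), with summed levels of 1296 CPM in CR against 2096 CPM in AL, and 1248 CPM in TR against 2075 CPM in AL. Of 8 mural markers 1 fell on CR and 2 on TR (739 against 1199 CPM and 565 against 1187 CPM), and 1 of 10 endothelial markers fell on each diet (1060 against 1297 CPM and 989 against 1284 CPM). Of 8 macrophage markers 1 fell on CR and 3 on TR, and 1 of 7 Schwann cell markers fell on each. Called or not, 10 of 12 fibroblast, 7 of 8 mural and 10 of 10 endothelial markers lay below 0 on CR. So did 8 of 8 macrophage and 7 of 7 Schwann cell markers, beside 48.1% of all genes. On TR 10 of 12, 8 of 8, 10 of 10, 7 of 8 and 7 of 7 lay below 0, in the same order, beside 52.5%. Of 10 adipocyte markers 0 passed on CR, and 2 rose and 1 fell on TR. Markers of neighbouring or foreign tissue also differed: hepatocyte genes summed to 199 CPM in CR against 988 CPM in AL, with 7 of 9 lower, and to 6399 CPM in TR against 980 CPM in AL, with 0 of 9 past the threshold. Skeletal muscle genes summed to 6745 CPM in CR against 2964 CPM in AL (0 of 12 called) and to 400 CPM in TR against 2949 CPM in AL (5 of 12 lower). With CR read directly against TR in iWAT, all 9 hepatocyte markers passed as lower on CR, beside 0.857% of all genes. Their median log2 difference was -6, with sums of 173 CPM in CR and 5718 CPM in TR. Of 11 muscle markers in that comparison, Mb and Myh1 passed with the CR level above that of TR. The 11 summed to 6191 CPM in CR and 370 CPM in TR. Levels back-calculated from this comparison differ from those against AL for the same libraries, as 173 and 199 CPM do for hepatocyte markers in CR. None of 10 lymphocyte markers passed on either diet, though all 10 lay above 0 on each, summing to 707 CPM in CR against 321 CPM in AL, and to 564 CPM in TR against 305 CPM in AL. Nor did any mammary epithelial marker pass (3 measured on CR, 4 on TR).

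Set directly against each other, the diets gave no called collagen gene in iWAT. By the authors' edgeR test 0 of 31 were lower in CR than in TR, beside 0.857% of all genes, and 0 were higher, beside 0.0612%. At an unadjusted p under 0.05, 0 were lower, beside 2.11% of all genes, and 1 was higher, beside 1.51%. That 1 was Col7a1 of the skin's anchoring fibrils (0.94 in the authors' deposited table, unadjusted p = 0.046, edgeR adjusted p = 1). The median log2 difference was 0.14 in the authors' deposited table, beside 0.01 over all genes. For Col4a3 the approximate 95% interval of the difference ran from -0.74 to 1.03, and for Col4a4 from -0.59 to 1.20. Differences of up to about those sizes between the diets are thus not excluded.

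In liver the collagen genes that passed were all higher on the diets than in AL. On CR 6 of 21 collagen genes rose relative to AL and none fell. They were the fibrillar chains Col1a1, Col1a2 and Col3a1, and the fibril-associated Col14a1, Col20a1 and the fibril-forming Col27a1. The 6 are 28.6% of those measured, beside 5.79% of all genes that rose (0 fell, beside 5.37% of all genes). The median log2 fold change was 0.34 in the authors' deposited table of CR against AL, beside 0.00 over all genes, and at an unadjusted edgeR p under 0.05, 9 were higher, beside 11.8% of all genes, and 0 lower, beside 11.1%. On TR 9 of 22 rose and none fell: the fibrillar Col1a1, Col1a2, Col3a1, Col5a2 and Col11a2, and Col13a1, Col14a1, Col20a1 and Col27a1. The 9 are 40.9%, beside 9.35% of all genes that rose (0 fell, beside 9.54%), with a median log2 fold change of 0.57 in the authors' deposited table of TR against AL, beside 0.00 over all genes. On TR 12 were higher at an unadjusted edgeR p under 0.05, beside 15.7% of all genes, and 0 lower, beside 15.1%. Col11a2, which is in that median and among the 9 and the 12, was measured in liver only where TR, its higher group, was present. Here too both diets are read against the same 6 AL libraries.

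The type I and III chains rose in liver, where their levels were low. Col1a1 had 2.09 CPM in CR and 3.34 CPM in TR, against 1.14 CPM in AL. Its log2 fold change in the authors' deposited table was 0.87 on CR (SE 0.249, edgeR adjusted p = 0.0079) and 1.54 on TR (SE 0.266, adjusted p = 3.9e-07). Col1a2 had 7.49 CPM in CR and 8.79 CPM in TR, against 4.64 CPM in AL (0.69 and 0.91 in the authors' deposited table, edgeR adjusted p = 0.0048 and 2.8e-04). Col3a1 was the most abundant of the 3, with 22.5 CPM in CR and 21.7 CPM in TR, against 12.1 CPM in AL. For Col3a1 the authors' deposited table gave 0.90 on CR (SE 0.138, edgeR adjusted p = 9.1e-09) and 0.84 on TR (SE 0.157, adjusted p = 3.9e-06). Col5a2 rose on TR, with 2.88 CPM against 1.80 CPM in AL (0.67, edgeR adjusted p = 0.011 in the authors' deposited table), and on CR had 2.61 CPM without passing (0.54, edgeR adjusted p = 0.14). Col5a1 did not pass, at 4.12 CPM in CR and 4.72 CPM in TR, against 3.86 CPM in AL (adjusted p = 0.83 and 0.35, edgeR, the authors' deposited table), nor did Col5a3 at 21.0 CPM in CR and 19.8 CPM in TR, against 23.7 CPM in AL. Col11a2 had 1.13 CPM in TR against 0.413 CPM in AL (1.45, edgeR adjusted p = 0.011 in the authors' deposited table). It is in the liver tables that include TR and not in that of CR against AL, so it was measured where TR, its higher group, was present.

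The largest collagen changes of liver were in Col20a1 and Col27a1. Col27a1, a fibril-forming collagen known from cartilage, had 155 CPM in CR and 216 CPM in TR, against 59.3 CPM in AL. Its log2 fold change in the authors' deposited table was 1.39 on CR (SE 0.199, edgeR adjusted p = 5.0e-10) and 1.85 on TR (SE 0.199, adjusted p = 3.9e-18). Its most abundant transcript, the protein-coding Col27a1-201, moved with the gene, at 121 CPM in CR and 164 CPM in TR, against 45.1 CPM in AL (1.42 and 1.86 in the authors' deposited table of transcripts, edgeR adjusted p = 1.4e-08 and 2.0e-13). Col20a1, a fibril-associated collagen, had 3.12 CPM in CR and 5.02 CPM in TR, against 0.776 CPM in AL. In the authors' deposited table it rose by 2.01 on CR (SE 0.281, edgeR adjusted p = 1.7e-10) and 2.69 on TR (SE 0.280, adjusted p = 4.3e-19). It shares 79 of its 5142 exon bases with BX649560.1 on the same strand, which itself had 0.59 on CR and 0.86 on TR in the authors' deposited table (edgeR adjusted p = 0.048 and 3.7e-04). Col14a1, which sits on fibril surfaces, had 38.1 CPM in CR and 39.5 CPM in TR, against 27.4 CPM in AL (0.48 and 0.52 in the authors' deposited table, edgeR adjusted p = 0.0083 and 0.017). Col13a1, a transmembrane collagen, rose on TR, with 3.41 CPM against 2.23 CPM in AL (0.61, edgeR adjusted p = 0.028 in the authors' deposited table), and had 0.13 on CR (adjusted p = 0.82).

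**Figure D3:**
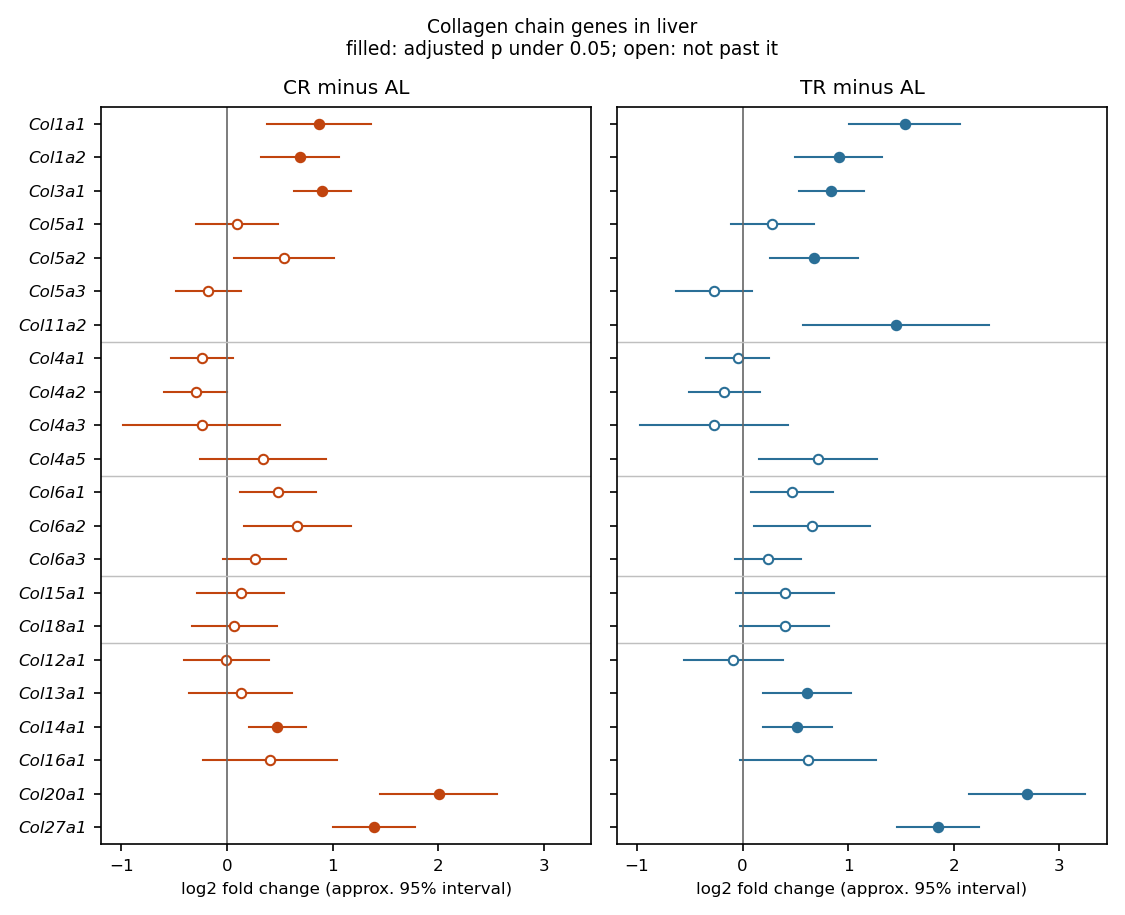
Log2 fold change of each collagen chain gene measured in liver for CR minus AL (left) and TR minus AL (right), with approximate 95% intervals; filled circles have an adjusted p under 0.05. All filled points lie right of 0, with Col20a1 (2.01 on CR, 2.69 on TR) and Col27a1 (1.39 and 1.85) farthest out, and no basement membrane chain is filled.

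The basement membrane, beaded and endostatin-type chains of liver did not pass. None of the 4 measured type IV chains was called on either diet. Col4a1 had 18.5 CPM in CR and 21.2 CPM in TR, against 21.7 CPM in AL (-0.24 and -0.05 in the authors' deposited table, edgeR adjusted p = 0.36 and 0.87), and Col4a2 had 12.9 CPM in CR and 14.1 CPM in TR, against 15.8 CPM in AL (adjusted p = 0.23 and 0.53). Col4a3 had 0.752 CPM in CR and 0.734 CPM in TR, against 0.887 CPM in AL (-0.24 and -0.27 in the authors' deposited table, edgeR adjusted p = 0.77 and 0.65). Col4a5 came nearest on TR (0.72, edgeR adjusted p = 0.056 in the authors' deposited table), and Col4a4 was in no liver table. Of the 3 beaded chains measured, Col6a1 and Col6a2 came nearer to the threshold than Col6a3. Col6a1 had 7.26 CPM in CR and 7.27 CPM in TR, against 5.20 CPM in AL (0.48 and 0.47 in the authors' deposited table, edgeR adjusted p = 0.068 and 0.078). Col6a2 had 3.42 CPM in CR and 3.44 CPM in TR, against 2.16 CPM in AL (0.67 and 0.66 in the authors' deposited table, edgeR adjusted p = 0.077 and 0.083), and Col6a3 had 0.26 and 0.24 (adjusted p = 0.30 on each diet). Col18a1, the most abundant collagen of liver per kilobase, had 412 CPM in CR and 523 CPM in TR, against 392 CPM in AL (0.07 and 0.40 in the authors' deposited table, edgeR adjusted p = 0.88 and 0.18). Col15a1 had 7.45 CPM in CR and 9.09 CPM in TR, against 6.81 CPM in AL (adjusted p = 0.77 and 0.24, edgeR, the authors' deposited table). The last chains measured in liver, Col12a1 (-0.01 on CR and -0.09 on TR) and Col16a1 (0.40 and 0.62), did not pass in the authors' deposited table either.

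In liver, collagen modification and folding had 4 of 19 genes higher on CR and 6 of 18 on TR, with 0 lower. The choice of genes named here for liver was made with their values in view. Counts in liver, for these lists and the markers below, stand beside 5.79% of all genes that rose on CR and 5.37% that fell. On TR the shares of all genes were 9.35% and 9.54%. The chaperone Serpinh1 rose, with 13.3 CPM in CR and 16.3 CPM in TR, against 7.62 CPM in AL (0.80 and 1.08 in the authors' deposited table, edgeR adjusted p = 0.003 and 2.6e-09). The prolyl hydroxylase subunits P4ha1 and P4ha2 rose on TR (0.73 and 0.72 in the authors' deposited table, edgeR adjusted p = 6.0e-04 and 4.7e-05) and did not pass on CR (adjusted p = 0.27 and 0.30). Procollagen processing had 0 of 5 called on CR and 1 of 5 higher on TR (Pcolce), and collagen breakdown had 1 of 11 higher on CR (Reck) and 3 of 11 on TR (Mmp15, Mmp23 and Reck). Basement membrane partners had 1 higher and 1 lower of 16 on each diet, Lamb3 being the lower one on both. No collagen receptor of 8 passed. Fibril-associated genes had 3 of 13 higher on CR, and 2 higher and 1 lower of 13 on TR, with Postn and Tnxb higher on both. The TGF-beta list had 1 higher and 2 lower of 16 on CR, and 4 higher and 2 lower on TR.

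None of 10 hepatic stellate cell markers passed on either diet, and they summed to 213 CPM in CR against 201 CPM in AL, and to 201 CPM in TR against 202 CPM in AL. Mural markers were higher in 1 of 7 cases on CR (Tagln) and 3 of 7 on TR (Acta2, Myh11 and Tagln), summing to 62.8 CPM in CR against 54.8 CPM in AL, and to 58.4 CPM in TR against 55.0 CPM in AL. Fibroblast markers were higher in 1 of 10 cases on CR (186 against 165 CPM) and 2 of 10 on TR (182 against 166 CPM). Most of these sums came from Dpp4, which was not called (134 against 115 CPM on CR, 130 against 115 CPM on TR). The median log2 fold change of the 10 was 0.08 on CR, with 4 below 0, and 0.04 on TR, with 5 below 0. Of the cholangiocyte markers 2 of 6 rose on CR and 2 of 5 on TR, and of 8 macrophage markers 0 passed on CR and 1 fell on TR. Endothelial markers had 0 of 10 called on CR, and 2 higher and 1 lower on TR. Hepatocyte markers had 2 of 9 higher on each diet. Adipocyte markers had 4 of 6 lower on CR, and 1 higher and 3 lower on TR. Mammary epithelial markers were higher in 1 of 4 cases on CR and 2 of 4 on TR. No lymphocyte or Schwann cell marker passed, and no skeletal muscle marker was in the liver tables. On CR 4 of 10 stellate and 0 of 7 mural markers lay below 0, called or not. On TR 6 of 10 and 1 of 7 did. The part of these cell types in the collagen values was not tested.

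Liver collagens did not differ past the threshold between the diets. By the authors' edgeR test 0 of 21 were lower in CR than in TR, beside 0.310% of all genes, and 0 were higher, beside 0.159%. At an unadjusted p under 0.05, 5 were lower in CR, beside 5.84% of all genes, and 0 were higher, beside 4.18%. These were Col27a1 (-0.46, unadjusted p = 9.9e-04, edgeR adjusted p = 0.11 in the authors' deposited table), Col20a1 (-0.68, adjusted p = 0.18), Col1a1 (-0.66, adjusted p = 0.21), Col18a1 (-0.33, adjusted p = 0.28) and Col13a1 (-0.48, adjusted p = 0.39). Col3a1 had 0.06 in the authors' deposited table, with an approximate 95% interval from -0.23 to 0.36. The median of the 21 was -0.19 in the authors' deposited table, beside 0.01 over all genes.

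The transcript tables were read in the same way against AL. In iWAT 2 of 70 fell on CR, beside 1.03% of all transcripts, and 0 rose, beside 1.42%, by the authors' edgeR test. On TR 4 of 66 fell, beside 1.52%, and 0 rose, beside 2.03%. The 2 on CR were Col4a3-201 and Col4a4-201, and on TR Col5a2-201 and Col6a3-201 were added to these. In liver 5 of 38 rose on CR, beside 1.45%, and 0 fell, beside 1.21%. On TR 6 of 39 rose, beside 1.96%, and 1 fell, beside 1.99%. Col27a1 gave 3 of the transcripts that rose on each diet, and Col3a1-201 and Col20a1-201 rose on both, joined by Col1a1-201 on TR. At an unadjusted edgeR p under 0.05, 8 collagen transcripts were lower in iWAT on CR, beside 5.61% of all transcripts, and 12 on TR, beside 6.88%. In the same tissue 0 were higher on CR, beside 4.80% of all transcripts, and 0 on TR, beside 6.24%. In liver 7 were higher on CR, beside 4.81% of all transcripts, and 10 on TR, beside 6.42%. There 0 were lower on CR, beside 4.70% of all transcripts, and 2 on TR, beside 6.17%.

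The difference between the tissues was tested gene by gene, as the iWAT minus the liver log2 fold change over the root of the summed squared SEs, with Benjamini-Hochberg adjustment over all genes measured in both tissues. On CR the difference was below 0 for 20 of 21 collagen genes, with a median of -0.91, beside 0.03 over all genes. Of these, 3 passed (0 in the other direction), beside 3.65% of all 12012 genes lower in iWAT and 3.09% higher. They were Col5a2 at -1.31 (approximate adjusted p = 0.017), Col20a1 at -1.76 (0.020) and Col27a1 at -1.17 (0.038). On TR it was below 0 for 22 of 22, with a median of -1.08, beside -0.01 over all genes, and 10 passed (0 in the other direction), beside 3.65% of all 12201 genes lower in iWAT and 4.16% higher. The largest were Col20a1 at -2.58 (approximate adjusted p = 2.5e-04), Col16a1 at -2.32 (0.012), Col4a5 at -2.15 (0.0051) and Col1a1 at -2.03 (0.0029). Among all 22, Col11a2, which did not pass, was measured in liver only where TR, its higher group there, was present. The difference of Col1a1 on TR joins -0.50 in iWAT and 1.54 in liver, and that of Col20a1 joins 0.10 in iWAT and 2.69 in liver. For Col4a1 the interval included 0 on both diets (from -1.09 to 0.53 on CR and from -1.42 to 0.07 on TR). With the tissues of a mouse taken as correlated by -0.3 the count on CR was 0 and that on TR 6, and by 0.3 the count on CR was 9. The count on TR was also 6 where a gene's log2 mean CPM had to reach 1 in both tissues.

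**Figure D4:**
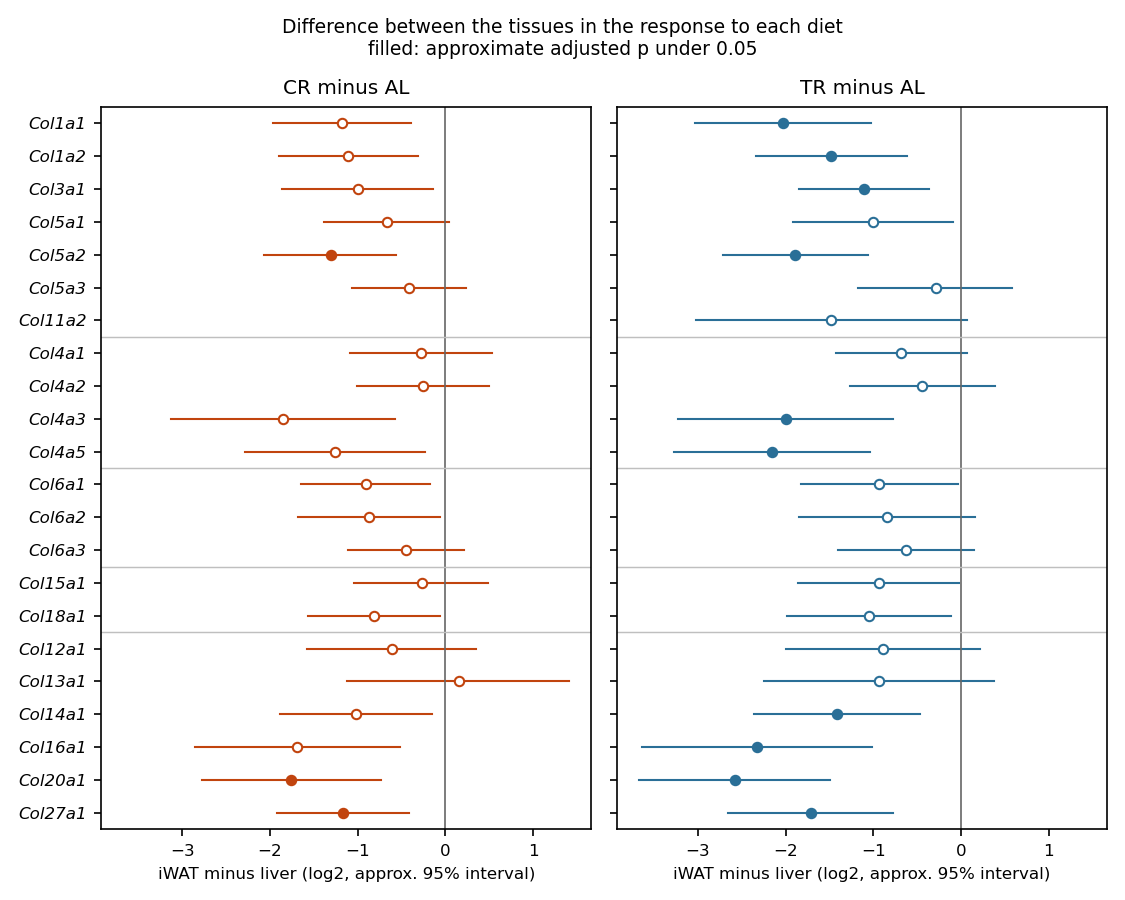
Difference between the tissues (iWAT minus liver log2 fold change) in the response of each collagen chain gene to CR (left) and TR (right), with approximate 95% intervals; filled circles have an approximate adjusted p under 0.05. Nearly all points lie left of 0 (20 of 21 on CR, 22 of 22 on TR), and more are filled on TR (10) than on CR (3). Col11a2 is shown for TR only, as it was measured in liver only where TR, its higher group there, was present.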

How the data were processed

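Per the labels, total RNA was extracted from iWAT and liver in Trizol and sequenced as Illumina TruSeq libraries; 36 libraries fall into 6 groups of 6, by diet and tissue. Per the submitters' processing notes, bcl2fastq 2.20, STAR 2.5.3a and RSEM were used with GRCm38.p5. Per the file headers, the authors compared groups with edgeR; the sources used here give neither its version, filter and normalization nor the annotation release. The 12 deposited tables (6 of genes, 6 of transcripts) hold 1 comparison each. Per the file headers, the log2 columns hold the authors' fitted fold change and mean CPM. The deposited score column holds the likelihood-ratio statistic of each gene or transcript. The deposited p-value columns hold the unadjusted p and the FDR, which is a Benjamini-Hochberg adjusted p.

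The design had planned a count model if counts were given; the deposited FDR under 0.05 was used. The deposited p matched the statistic (1 degree of freedom) within 5e-06. The approximate SE divides the absolute log2 fold change by the root of the statistic, and 95% intervals are 1.96 SE to each side. Each group level follows from the mean CPM and the fold change, taking the mean as the average of the groups. AL levels from the CR and TR tables differed by at most 0.0577 (iWAT) and 0.0161 (liver) log2 units for collagen genes. Levels of CR and TR iWAT differed more between comparisons. Col4a1 in CR iWAT had 786 CPM when compared with AL and 686 CPM when compared with TR, and in TR iWAT 678 and 627 CPM. CR and TR levels set against AL thus come from different comparisons and are approximate beside each other. Levels per kb use GENCODE M21 transcript lengths weighted by transcript level. Labels share an animal number between CR and TR, counted as different mice. Depth per library is unknown, so no counting interval is given. Tissues of 1 mouse were treated as independent, with correlations of 0.3 and -0.3 tried as alternatives. Other alternatives were thresholds of 0.01 and 0.1, a log2 mean CPM of at least 1, centring on each table's median, genes in all 3 tables of a tissue and the transcript tables. Named are collagen genes past the threshold, 12 major chains and, of each list, up to 3 genes of smallest adjusted p in iWAT; any other was chosen with its values in view. The members and lists were chosen with earlier results of these data known. The scripts, run with pandas 2.3.3 and scipy 1.17.1 in Python 3.11.15, were tested on simulated data.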

Additional observations from a re-analysis of the deposited data

Results flagged for a closer look

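The tissue difference (iWAT minus liver log2 fold change, approximate test) marked 13 collagen results. On CR these were Col5a2 (-1.31), Col27a1 (-1.17) and Col20a1 (-1.76). On TR these were Col4a3 (-2.0), Col5a2 (-1.89), Col4a5 (-2.15), Col16a1 (-2.32), Col14a1 (-1.41), Col1a2 (-1.48), Col1a1 (-2.03), Col3a1 (-1.11), Col27a1 (-1.71) and Col20a1 (-2.58). In each case the response to the diet was lower in iWAT than in liver. Libraries far from their group could not be looked for without values per library.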

How the results depend on the processing

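No paired analysis was possible because the tables give no values per library; for the same reason no library could be left out. No called gene was called in the other direction under the alternatives run, with its most abundant transcript standing for it at the transcript level. At a threshold of 0.1 the collagen genes lower in iWAT on CR numbered 5 in place of 3. At 0.01 those lower in iWAT on TR numbered 2 in place of 6, those higher in liver on TR 5 in place of 9, and those with a lower response in iWAT than in liver 0 on CR and 5 on TR, in place of 3 and 10. A correlation of 0.3 between the tissues gave 9 on CR; one of -0.3 gave 0 on CR and 6 on TR; a log2 mean CPM of at least 1 in both tissues gave 6 on TR. Counting genes with a called transcript in the transcript tables, 3 were higher in liver on CR in place of 6, and 4 on TR in place of 9. By the same count 1 was higher in CR than in TR in iWAT (Col6a3) and 1 lower on TR in liver (Col15a1), in place of 0 each. Of the other counts under alternatives, 75 stayed within 1.5 times. Centring on the median of a table moved no single gene across the threshold. Keeping genes in all 3 tables of a tissue moved none of the genes kept. It dropped Col11a1, called lower in iWAT on CR, and Col11a2, called higher in liver on TR. Among single genes, 17 calls were lost at 0.01, 10 in the most abundant transcript and 7 with a correlation of -0.3; 9 were gained at 0.1 and 6 with a correlation of 0.3. The unknown depth limits what can be said of Col11a1, Col11a2 and other chains near 1 CPM.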

Other observations

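At the transcript level a minor form of 2 collagen genes had a back-calculated level near 0 in TR mice. In iWAT, Col6a3-201, which made up 0.364% of the gene's transcript level, had 0.00500 CPM in TR against 1.91 CPM in AL (the authors' deposited table of transcripts, edgeR adjusted p = 1.8e-05). The main form Col6a3-202 had 209 CPM in TR against 277 CPM in AL and did not pass (adjusted p = 0.74, edgeR, the authors' deposited table). In liver, Col15a1-201, at 8.77% of its gene, had 0.00544 CPM in TR against 1.39 CPM in AL (the authors' deposited table of transcripts, edgeR adjusted p = 0.0039). The main form Col15a1-202 had 7.55 CPM in TR against 4.38 CPM in AL (adjusted p = 0.72, edgeR, the authors' deposited table). Fitted folds against a group near 0 depend on the prior count and are not given. The near-0 levels above were back-calculated from those folds, so they share this dependence and are not measured values. RSEM divides reads among forms that share most of their exons, and the part of this in these values was not tested. Both forms were singled out with their values in view.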
